A study of Mus musculus with 2 samples.

Results

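EP300 peaks near the 6 genes named for CCAAT/enhancer-binding proteins (CEBP) were taken from ChIP-seq of newborn mouse liver. The genes were Cebpa, Cebpb, Cebpd, Cebpe, Cebpg and Cebpz, chosen by name among 21938 protein-coding genes. A peak belonged to a gene when its summit, the base of highest signal, lay within 100 kb of any of the gene's transcription start sites (TSSs) in GENCODE M21. Of 26844 peaks in the optimal list, 39 met this rule, and 6 of 6 genes had at least 1, so 0 had none. The same limit caught 76.5% of protein-coding genes. The 39 are called CEBP-locus peaks here.

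EP300 (p300) is a histone acetyltransferase that many transcription factors bring to enhancers and promoters. The study held 1 group, liver of mice of strain B6NCrl at an age of 0 days, with 2 replicates and no second condition. Both replicates carried the same biosample and donor labels, so the spread between them may be technical. Each had its own list of 300000 peaks. The optimal list, made from both replicates, held peaks that passed a filter on the irreproducible discovery rate (IDR). Replicate 2 had an overlapping peak for 95.9% of them, so a place in this list does not mean that both replicates held the peak.

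The CEBP factors bind DNA as dimers through a basic leucine zipper. Cebpa and Cebpb serve hepatocyte metabolism and the acute-phase response in liver, Cebpd the acute-phase response and adipocyte formation, and Cebpe the late steps of granulocyte differentiation. Cebpg encodes a short member that acts mainly as a dimer partner. Cebpz carries a CEBP symbol but encodes a CCAAT-binding protein that has no leucine zipper of this family and is known for its part in making ribosomes.

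Stretches that reach 50 bases either way from a summit are printed below, from the forward strand of the GRCm38 (mm10) genome, 5′ to 3′. They include all windows that hold the sequence known for CEBP factors, TTGCNNAA on either strand with N any base. Also shown are the strongest windows of Cebpa, Cebpb, Cebpe and Cebpg, and the Cebpa promoter window. A window downstream of Cebpa with a FOXA match and one downstream of Cebpd with a STAT match at the summit are added. So is the window 76.4 kb downstream of Cebpb. Capitals mark every match on either strand. Besides TTGCNNAA these are AGATAA, known for GATA factors, and TGTTTAC, known for FOXA factors. CCGGAAG is known for ETS factors, and CCNCNCCC for KLF and SP factors. TTCNNNGAA is known for STAT factors, and CAGCTG is an E-box. CCAAT is known for NFY. Matches that overlap run together. The windows at the strongest Cebpd summit and at the one that overlaps it are not shown because they lie in an untranslated region. The strongest Cebpz window, in an untranslated region of Eif2ak2, is not shown either.

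Cebpe, 6.18 kb downstream, chr14:54705940-54706040: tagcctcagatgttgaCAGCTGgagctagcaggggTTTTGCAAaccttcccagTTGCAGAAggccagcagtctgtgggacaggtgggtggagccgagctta

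Cebpb, 1.04 kb upstream, chr2:167687829-167687929: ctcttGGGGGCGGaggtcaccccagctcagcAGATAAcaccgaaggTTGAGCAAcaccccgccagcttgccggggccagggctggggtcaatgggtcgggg

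Cebpb, 65.2 kb downstream, chr2:167754069-167754169: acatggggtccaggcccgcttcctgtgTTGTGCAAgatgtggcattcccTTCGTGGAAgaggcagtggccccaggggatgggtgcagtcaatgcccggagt

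Cebpb, 76.4 kb downstream, chr2:167765280-167765380: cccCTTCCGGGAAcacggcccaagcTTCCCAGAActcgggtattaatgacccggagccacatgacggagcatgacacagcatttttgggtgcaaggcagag

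Cebpb, 59.9 kb upstream, chr2:167628933-167629033: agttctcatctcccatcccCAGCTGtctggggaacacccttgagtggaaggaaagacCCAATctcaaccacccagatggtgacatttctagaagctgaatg

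Cebpa and Cebpg, 83.5 kb upstream of Cebpa, chr7:35035718-35035818: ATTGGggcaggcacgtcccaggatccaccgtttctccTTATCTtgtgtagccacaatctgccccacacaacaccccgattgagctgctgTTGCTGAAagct

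Cebpa and Cebpg, 28.5 kb upstream of Cebpa, chr7:35090703-35090803: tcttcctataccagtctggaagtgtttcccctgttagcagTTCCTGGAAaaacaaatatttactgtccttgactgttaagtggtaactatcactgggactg

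Cebpa promoter, 0.167 kb upstream, chr7:35119076-35119176: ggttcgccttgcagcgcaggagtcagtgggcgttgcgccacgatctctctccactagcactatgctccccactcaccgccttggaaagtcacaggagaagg

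Cebpa and Cebpg, 30.9 kb downstream of Cebpa, chr7:35150180-35150280: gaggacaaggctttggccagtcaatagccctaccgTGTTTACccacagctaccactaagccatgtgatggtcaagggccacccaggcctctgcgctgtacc

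Cebpd, 60.0 kb downstream, chr16:15948388-15948488: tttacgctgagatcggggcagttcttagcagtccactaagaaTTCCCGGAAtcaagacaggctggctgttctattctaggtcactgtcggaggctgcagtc

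Cebpz, 81.7 kb upstream, chr17:79018666-79018766: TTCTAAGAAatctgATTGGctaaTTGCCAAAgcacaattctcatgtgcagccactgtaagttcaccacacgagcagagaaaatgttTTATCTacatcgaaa

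The window downstream of Cebpe held 2 matches to TTGCNNAA, TTTTGCAA from 15 to 8 bases before the summit and TTGCAGAA from 3 to 10 bases after it. The window just upstream of Cebpb held 1, TTGAGCAA, from 4 bases before to 3 bases after the summit. In the Cebpa promoter window none of the 15 sequences searched was found. A match is a description of letters and not a bound site, and a window with no match says nothing about a factor.

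Cebpe, the granulocyte gene, had a single summit within 100 kb, and it was the second strongest of any gene's leading peak in the family. The gene lies on the reverse strand at chr14:54710360-54712174. The peak, chr14:54705876-54706122, was intergenic with its summit 6.18 kb downstream of the TSS, past the end of the gene, and Cebpe was the nearest protein-coding gene. A region several kilobases downstream of Cebpe is known as an enhancer needed for granulocyte differentiation in mice. The signal value, the authors' score for a peak on a scale that is not stated, was 209 in the optimal list. This was rank 1131 of the deposited list. The matched peaks had 133 in replicate 1 (rank 1119) and 75.0 in replicate 2 (rank 1144), so the ranks stood close together. The next optimal summit lay outside the rule's limit, at 109 kb, with a signal of 31.6. As background, 9.97% of protein-coding genes had a single summit within 100 kb and 23.5% had 0.

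Cebpb, at chr2:167688915-167690418 on the forward strand, had the most summits of the family, 16, with 6 upstream and 10 downstream of its TSS. Of all protein-coding genes, 3.57% had as many or more. This lead rested on the limit of 100 kb, since within 50 kb Cebpb had 4 summits, Cebpa 7 and Cebpg 4. The signals ran from 10.1 to 313 with a median of 47.2 and a sum of 1231. Replicate 1 matched 16 of these peaks and replicate 2 matched 15.

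The strongest CEBP-locus peak, chr2:167628842-167629110, lay 59.9 kb upstream of Cebpb with a signal of 313 (rank 407). Its matched peaks had 189 in replicate 1 (rank 454) and 122 in replicate 2 (rank 382). It sat in an intron of Ube2v1, a ubiquitin-conjugating enzyme gene whose TSS was 2.98 kb away. A peak within 100 kb of a CEBP gene is placed by distance only, and which gene it acts on was not measured.

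The 10 downstream summits of Cebpb formed 1 run from 65.2 to 92.9 kb past the TSS, with gaps of at most 12 kb between neighbours. The run spanned 27.7 kb outside protein-coding genes and its signals summed to 704. Stitched the same way, the optimal list formed 14790 runs or single peaks, and this run ranked 170 by summed signal, within the top 1.15%. It held no TSS of a protein-coding gene, and the protein-coding gene with the nearest TSS was Tmem189, by its transcript that starts inside Cebpb. The TSSs of the long noncoding RNA genes Gm14321 and 9230111E07Rik lay at its far end, with 3 summits from 0.016 to 0.452 kb downstream of the Gm14321 TSS. The strongest peak of the run, 76.4 kb downstream, had a signal of 213, with 126 in replicate 1 (rank 1265) and 85.2 in replicate 2 (rank 927). The peak at 86.5 kb had 141, with 89.0 in replicate 1 and 47.2 in replicate 2. The peak at 65.2 kb had 93.3, with 57.2 in replicate 1 and 33.6 in replicate 2. These 3 peaks were the high ones of the run in both replicates, apart from 67.8 in replicate 1 beside the Gm14321 TSS. That peak, at 88.6 kb, had 68.5 in the optimal list and no match in replicate 2. The peak at 88.9 kb overlapped both it and the peak at 89.1 kb, and the sum of 704 counts all 3. The peaks at 88.9 and 89.1 kb also shared 1 matched peak of replicate 2, so the signals there are not separate measurements. The weakest CEBP-locus peak also lay in the run, at 69.0 kb, with 10.1 in the optimal list, 4.92 in replicate 1 and 5.35 in replicate 2.

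The summit nearest to Cebpb lay 1.04 kb upstream, just past the 1 kb that was used for promoters, in an intron of Tmem189, of which a processed transcript starts inside Cebpb on the opposite strand. Its signal was 59.1, with 44.2 in replicate 1 (rank 6463) and 14.4 in replicate 2 (rank 12054). The other 4 upstream summits, between 54.4 and 16.4 kb from the TSS, had signals from 20.2 to 59.1. All of them lay in introns of Tmem189 or of the predicted gene Gm20431, which overlaps Tmem189 and Ube2v1.

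Cebpa, at chr7:35119293-35121928 on the forward strand, and Cebpg, at chr7:35046422-35056573 on the reverse strand, are neighbours that point away from each other, with 62.7 kb between their TSSs. Cebpa had 9 summits and Cebpg had 10, and 8 of these were the same, so both genes together had 11. Of all protein-coding genes, 19.0% had as many summits as Cebpa or more, and 15.3% as many as Cebpg or more. Between the TSSs lay 5 of the 11. Nothing in peak positions divides the shared peaks between the genes.

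The strongest peak at these genes, chr7:35090561-35090944, lay between them, 28.5 kb upstream of Cebpa and 34.2 kb upstream of Cebpg. Its signal was 131 (rank 2440), with 85.9 in replicate 1 (rank 2400) and 45.4 in replicate 2 (rank 2473). The summit nearest to Cebpg, 8.52 kb upstream, had 57.0, with 29.6 in replicate 1 and 23.2 in replicate 2. The summit 2.65 kb upstream of Cebpa had 47.9, with 33.3 in replicate 1 and 13.6 in replicate 2.

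Cebpa was the 1 member of 6 with a summit within 1 kb of a TSS, against 23.8% of protein-coding genes. The summit lay 0.167 kb upstream, and its signal of 40.5 (rank 12539) was near the middle of the list. Replicate 1 had 33.6 there (rank 9611) and replicate 2 had 7.68 (rank 31331), a log2 ratio of 2.13. Of the 9 Cebpa peaks, those 30.9 and 48.9 kb downstream also stood far apart between replicates. The first had 27.4 in replicate 1 and 4.02 in replicate 2, and the second had 49.4 in replicate 1 and 7.38 in replicate 2. All 3 were missing from the conservative list, the authors' other and shorter IDR list. The peak 24.7 kb downstream, at 31.6, was closer, with 18.3 in replicate 1 and 12.8 in replicate 2.

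Of the summits counted for Cebpg alone, the one 82.2 kb downstream had 70.5, with 37.6 in replicate 1 and 29.9 in replicate 2. It lay inside Pepd, a peptidase gene, and counted as a promoter only because a retained-intron transcript of Pepd starts 0.012 kb away. The other, 65.7 kb downstream in a Pepd intron, had 28.5. The farthest shared peak, 83.5 kb upstream of Cebpa, had 21.8 and 19.7 in replicate 1, with no match in replicate 2.

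Cebpd, at chr16:15887286-15891031 on the forward strand, had 7 summits, and 28.9% of protein-coding genes had as many or more. Its strongest peak lay within the gene itself, 1.44 kb downstream of the nearest TSS and 2.56 kb downstream of the protein-coding one. The signal was 102 (rank 3465), with 68.1 in replicate 1 (rank 3440) and 35.4 in replicate 2 (rank 3454). A second peak overlapped it, with its summit at 1.63 kb and a signal of 52.4. Both also lie within Spidr, a DNA repair gene on the opposite strand. They lie in an untranslated region, and whether it is that of Cebpd or of Spidr was not resolved. Farther downstream, 4 summits between 60.0 and 96.0 kb lay in Spidr introns, with signals from 21.4 to 55.6. The peak at 96.0 kb, the nearest of all to the limit of the rule, had 40.6, with 18.9 in replicate 1 and 20.9 in replicate 2, the order opposite to most. The summit upstream, at 23.8 kb, had 59.4 and lay at the promoter of Mzt2, a gene for a mitotic spindle protein. Outside the limit, the nearest summit to Cebpd lay 157 kb upstream with 25.1.

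Cebpz, at chr17:78919006-78937066 on the reverse strand, had 4 summits, and 49.2% of protein-coding genes had as many or more. None of the 4 had Cebpz as the nearest protein-coding gene, and their signals ran from 16.7 to 38.7, around or below the list median of 38.3. The strongest, at 38.7, lay at the promoter of Eif2ak2, the gene of an interferon-induced kinase, with 27.5 in replicate 1 and 10.8 in replicate 2. The nearest, at 24.5, lay 9.6 kb from the start of a retained-intron transcript but 23.8 kb from the protein-coding TSS. It had 13.6 in replicate 1 (rank 31508) and 13.1 in replicate 2 (rank 13748). The weakest, in a Sult6b1 intron 31.6 kb downstream, had 16.7, with 9.14 in replicate 1 (rank 58785) and no match in replicate 2. The last of them, in a Prkd3 intron 81.7 kb upstream, had 28.8, with 19.4 in replicate 1 and 7.54 in replicate 2.

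**Figure D1:**
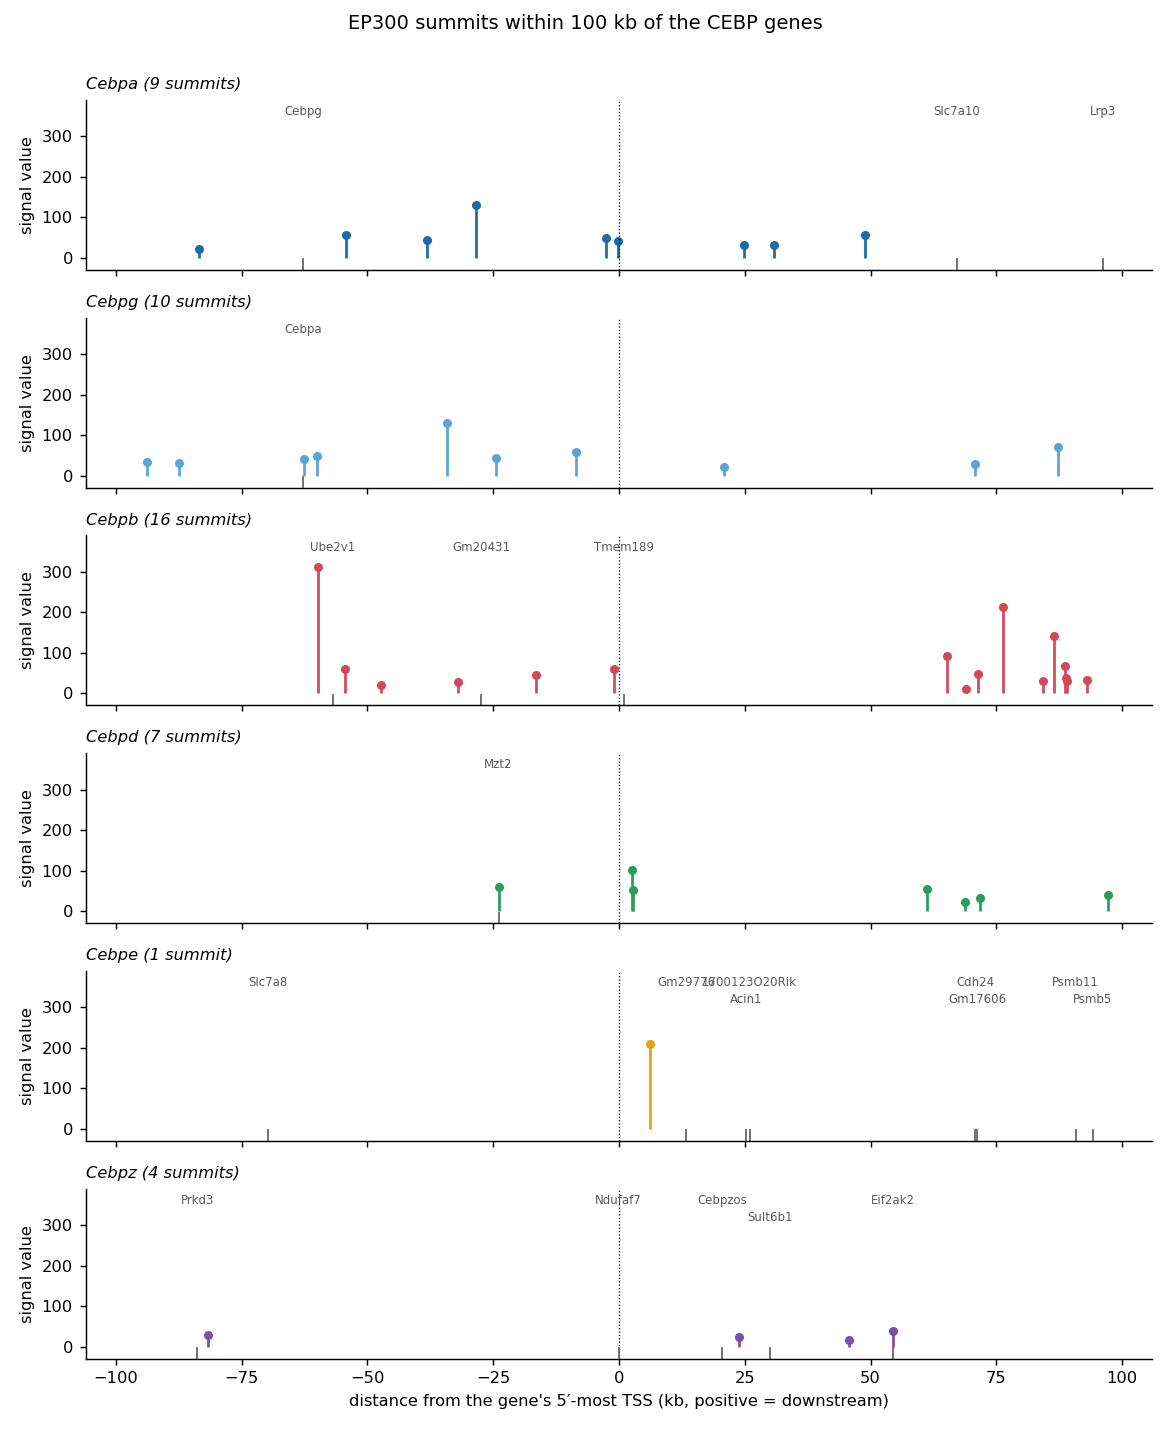
Signal value (vertical axis, scale not stated) of each optimal summit against its distance in kb from the gene's 5′-most TSS (dotted line), 1 panel per gene, with grey ticks at the 5′-most TSS of other protein-coding genes. Cebpb had 16 summits with the run of 10 on the right, Cebpe a single one at 209, and Cebpz no value above 38.7.

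The leading peaks within 100 kb had the same order in both replicates. The peak of Cebpb at 313 was followed by those of Cebpe at 209, Cebpa and Cebpg at 131, Cebpd at 102 and Cebpz at 38.7. In replicate 1 they had 189, 133, 85.9, 68.1 and 27.5, and in replicate 2 they had 122, 75.0, 45.4, 35.4 and 10.8. No rank of a gene in 1 replicate passed the rank of the next gene in the other. With 2 replicates of 1 group no test was made. Within 50 kb the strongest Cebpb peak had 59.1, behind those of Cebpe, of Cebpa and Cebpg, and of Cebpd. The order by number of summits was less firm, since the conservative list gave Cebpa 6 and Cebpd 7, and Cebpe 4 and Cebpz 3. In tissue, few cells with much EP300 at a site and many cells with little cannot be told apart.

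The family as a whole lay near the middle of the list. The median signal of the 39 CEBP-locus peaks was 42.8 (95% order-statistic interval 32.3 to 57.4), and that of all optimal peaks was 38.3. This interval and those below treat peaks as separate, though 5 of the 39 overlap another and 10 lie in 1 run. In the strongest 20% of the list, at 74.7 or above, stood 7 of 39, or 17.9%. A summit within 10 kb of a TSS was found for 6 of 6 genes, where 41.0% of protein-coding genes had one. With protein-coding transcripts only, 5 of 6 had one, where 38.2% of genes did. Genes had a median of 3 summits within 100 kb (interquartile range 1 to 7).

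**Figure D2:**
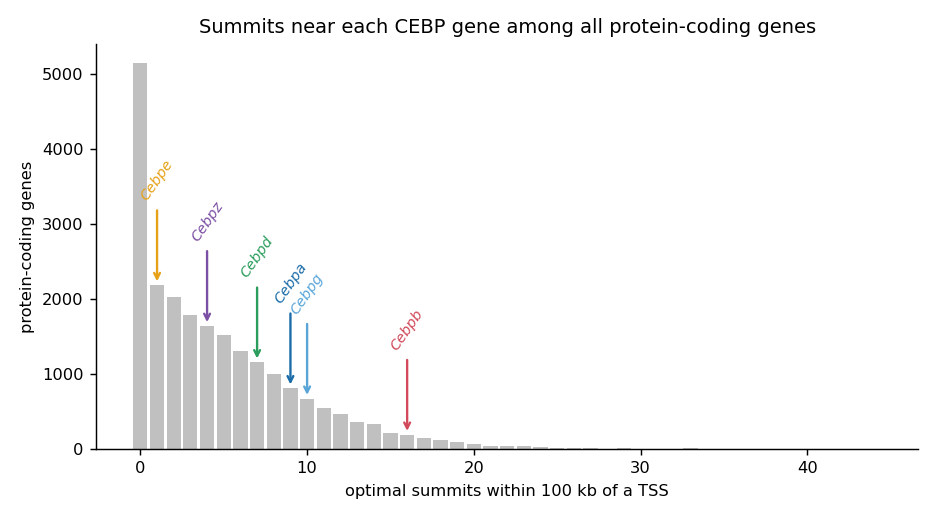
Number of protein-coding genes (vertical axis) by the number of optimal summits within 100 kb of a TSS (horizontal axis), with arrows at the 6 CEBP genes. Cebpb stands in the tail at 16, and Cebpe stands at 1, below the median of 3.

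By place, the CEBP-locus peaks were mostly away from promoters. Promoters of any protein-coding gene held 4 of 39, or 10.3% (95% Clopper-Pearson interval 2.87 to 24.2%), against 23.4% of all optimal peaks. Exons held 2 (5.13%, against 2.97%), introns 14 (35.9%, against 37.5%) and sequence outside protein-coding genes 19 (48.7%, against 36.1%). The interval for promoters reached the share of the whole list. Of the 39, 15 had a CEBP gene as the nearest protein-coding TSS. The 10 summits downstream of Cebpb were not among them, because a Tmem189 transcript starts inside Cebpb.

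Replicate 1 matched 39 of 39 CEBP-locus peaks, where it matched 99.8% of all optimal peaks. Replicate 2 matched 36 of 39, or 92.3% (79.1 to 98.4%), where it matched 95.9%. A match was an overlap of at least 1 base, and since the optimal list was made from both replicates it is no independent support. Both replicates matched 36, against 95.7% of all. Both matched peaks stood among each replicate's own highest, cut to the length of the optimal list, for 24 of 39, against 64.0% of all. This held for 7 of the 7 in the strongest 20%, against 99.9% of all optimal peaks of that strength, and for 4 of the 16 at or below the median of the list, against 32.8%. The conservative list held 27 of 39, or 69.2%, against 74.4% of all.

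Replicate 1 had the higher signal at 32 of 36 matched pairs and replicate 2 at 4. The median log2 ratio of replicate 1 over replicate 2 was 0.93 (SD 0.82, n = 36 peaks), against 0.94 (SD 0.74, n = 25702) over the whole list. The scale and depth of each list are not known, so what part of this shared offset is binding was not tested. For the 7 strongest CEBP-locus peaks the ratio stayed between 0.56 and 0.94, while over all 36 it ran from -0.70 to 2.77. The strongest 20% of the whole list had an SD of 0.38 around a median of 0.86. Spearman's rho between replicates was 0.634 across the 36 peaks and 0.695 across the whole list, where peaks share 2 libraries and are not replicates.

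**Figure D3:**
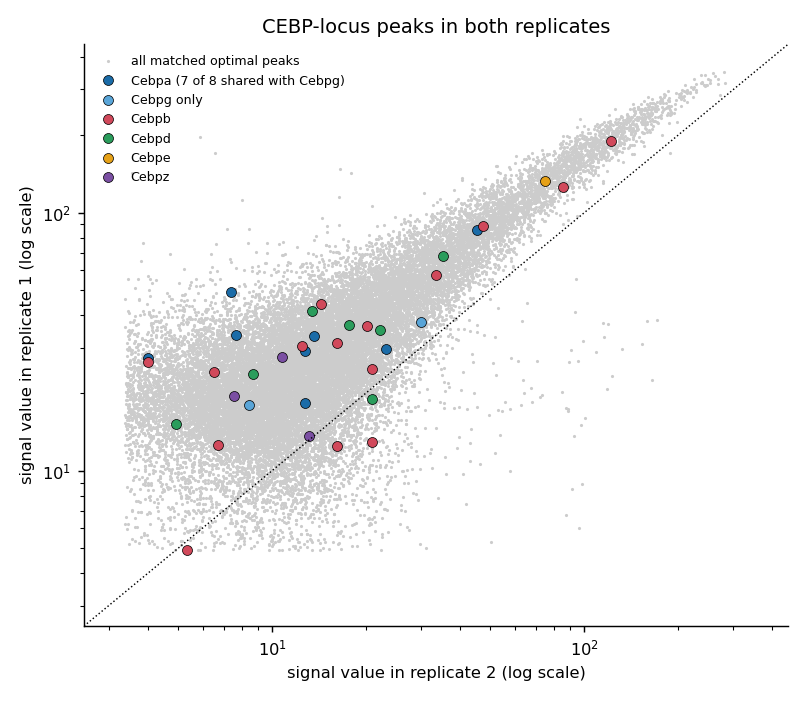
Signal value in replicate 1 (vertical, log scale) against replicate 2 (horizontal, log scale) for the 36 CEBP-locus peaks matched in both (coloured by gene) and all matched optimal peaks (grey), with the line of equal values dotted. The 7 strongest lie along the upper arm of the grey cloud and the weaker ones spread across it.

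The sequence known for CEBP factors stood within 50 bases of 5 of 39 CEBP-locus summits, or 12.8% (95% Clopper-Pearson interval 4.3 to 27.4%), against 8.93% of all optimal summits. In flanking windows centred 500 bases to either side it stood in 0 of 78 windows at CEBP loci and in 3.86% of all flanks. The 5 were the summits of Cebpe, of Cebpb at 1.04 kb upstream and 65.2 kb downstream, of the Pepd intron 83.5 kb from Cebpa, and of the Prkd3 intron near Cebpz. Beyond 1 kb from any protein-coding TSS the count was 5 of 35, against 9.82%. The full palindrome TTGCGCAA was in 0 of 39 windows, against 0.145% of all.

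For each of the other sequences in the plot of sequence shares, the share of all peaks lay within the interval of the CEBP-locus share. The GATA sequence AGATAA was in 5 of 39 windows, or 12.8% (4.3 to 27.4%), against 22.3% of all. The windows that held both it and TTGCNNAA were 3 of 39, or 7.69% (1.62 to 20.9%), against 1.28% of all, which is below that interval. This pairing was chosen with the values known and is 1 of many that could be formed. These 3 were the Cebpb window 1.04 kb upstream and both intronic ones, in Pepd and Prkd3. The STAT sequence TTCNNNGAA was in 5, or 12.8%, against 4.95%. The FOXA sequence TGTTTAC was in 3, or 7.69%, against 3.06%, and 2 of these lay downstream of Cebpa at 24.7 and 30.9 kb. The KLF and SP sequence CCNCNCCC was in 8, or 20.5%, against 13.8%. The E-box CAGCTG was in 5 (7.85% of all), CCAAT in 4 (13.1% of all) and the ETS sequence CCGGAAG in 3 (2.76% of all). The AP-1 sequence TGANTCA was in 0 of 39, with an upper limit of 9.03%, against 5.62%. The median GC content of the windows was 55.4%, against 47.5% over the whole list, and no share was adjusted for it.

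**Figure D4:**
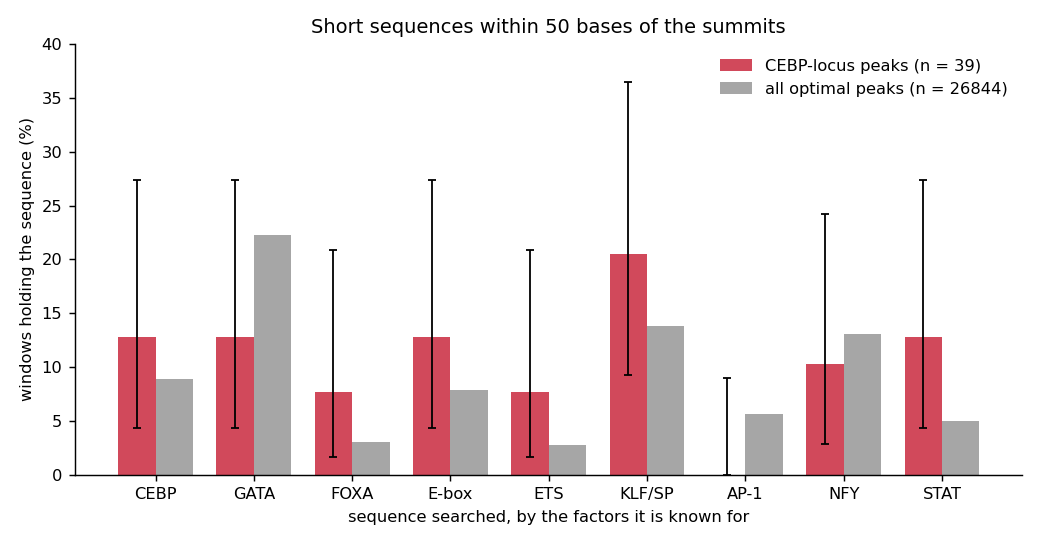
Percent of summit windows that hold a sequence (vertical axis), by the factors each sequence is known for, for the 39 CEBP-locus peaks (red, with 95% Clopper-Pearson intervals) and all 26844 optimal peaks (grey). The intervals are wide, and the share of all peaks lies inside each of them for the 9 sequences drawn.

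Genes linked to the CEBP factors in other work were looked up in the same list, counting a gene when a summit lay within 10 kb. These lists and the marker lists below were chosen with earlier results of these data known. Their shares beside that of all protein-coding genes are descriptions, and the genes compared were not matched. Of 12 dimer partners and related leucine zipper genes, 10 had a summit, against 41.0% of all protein-coding genes. Their strongest peaks had a median of 59.9, against 50.7 over all genes with a summit. The highest were at Atf4, with 91.2, at Ddit3, which encodes the stress-induced partner CHOP, with 88.4, and at Atf5, with 79.6. Batf and Batf3, which serve lymphoid and dendritic cells, had none. Their nearest summits lay at 77.2 kb and -14.4 kb, where negative is upstream.

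Of 11 known regulators of CEBP genes or proteins, 5 had a summit, against 41.0% of all protein-coding genes. Their strongest peaks had a median of 148, against 50.7 over all genes with a summit. Stat3, which carries the interleukin-6 signal, had the highest, 279, with 182 in replicate 1 and 99.4 in replicate 2. Runx1, a regulator of blood formation, had 150, and Trib1, whose product promotes the breakdown of CEBPA protein, had 148. The others with a summit were lower, Pparg with 43.9 and Spi1 with 38.9. Il6ra and Gfi1 were among those with none, but their nearest summits lay just past the limit, at 11.5 kb and -13.3 kb.

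Known liver targets had a summit in 9 of 10, against 41.0% of all protein-coding genes. The median was 74.8, against 50.7 over all genes with a summit. Tat and Cps1, of tyrosine breakdown and the urea cycle, had 138 and 134, and Pck1, of gluconeogenesis, had 108. The clotting factor gene F9 had none, with its nearest summit at 15.2 kb. Known granulocyte targets had a summit in 6 of 10, against the same 41.0%, with a median of 45.4, below the 50.7. The highest were S100a8 at 58.1 and Lcn2 at 56.4, while Mpo and Camp had none. Elane and Prtn3 share 1 peak.

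Markers of hepatocytes, erythroid cells, granulocytes, macrophages and adipocytes were read the same way. A summit near a marker does not show that the cell type was present. A summit within 10 kb was found at 5 of 5 hepatocyte markers (median of the strongest 52.5), 5 of 5 erythroid markers (220), 3 of 5 granulocyte markers (45.4), 1 of 5 macrophage markers (54.0) and 4 of 5 adipocyte markers (38.9). Over all protein-coding genes 41.0% had such a summit, with a median of the strongest of 50.7. All 5 granulocyte markers were also among the granulocyte targets above, and Alb and Ttr among both the liver targets and the hepatocyte markers. These lists are therefore not separate observations. Of the granulocyte markers, Elane and Prtn3 share 1 peak. The erythroid peaks were high, from 152 at Epor to 390 at Alas2. The granulocyte markers Mpo and Camp and the macrophage markers Adgre1, Csf1r, Clec4f and Marco had none. The nearest summit lay at 16.7 kb for Camp and -11.6 kb for Adgre1, but at -139 kb for Clec4f and 237 kb for Marco. The part of any cell type in the CEBP-locus peaks was not tested.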

How the data were processed

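EP300 was profiled by ChIP-seq in 2 replicates of newborn mouse liver. The authors deposited 5 peak lists on mm10: 1 per replicate, 1 on both replicates together (pooled), and 2 lists filtered by IDR, optimal and conservative. Per the file descriptions, each was made against a control alignment. The sources used here name no aligner, peak caller, IDR threshold or version. In the deposited lists the signal value is a score per peak on no stated scale, so it was compared only within a list, and the optimal list carries the pooled list's values. No list gives read counts, so depth is unknown, and intervals cover counting error only.

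Only assembled nuclear chromosomes were kept, which left 26844 of 26883 peaks of the optimal list. Summits were placed against GENCODE M21 in the order promoter (1 kb or less from the TSS of a protein-coding gene), exon, intron, intergenic, counting protein-coding genes only. Distances run from the nearest TSS of any transcript. A replicate peak matched on an overlap of at least 1 base, nearest summit first. Ranks are those by signal. Summits were stitched within 12 kb. Sequences were read from the RefSeq GRCm38 genome. Python 3.11.15, pandas 2.3.3, numpy 2.4.6, scipy 1.17.1, pysam 0.24.0, samtools 1.23.1 and matplotlib 3.10.9 were used, and the scripts were tested on simulated data.

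All 6 members are named, with optimal and replicate signals for each gene's strongest and nearest summits and for the Cebpa promoter summit. Other genes are named where nearest to a summit, or as the strongest or empty members of a list. The members and lists were chosen with earlier results of these data known. There is 1 group, so no test was made. Alternatives were the conservative list, each replicate alone, the upper 50% by signal, other distances, matches and motif windows.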

Additional observations from a re-analysis of the deposited data

How the results depend on the processing

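The count of 39 summits within 100 kb was 32 in the conservative list and 33 to 43 with 1 replicate left out. With 1 left out, the other replicate's list was cut to its highest 26883 peaks. That is the length of the optimal list, so similar totals are partly set by the cut. It fell to 23 in the upper 50% of the list by signal and to 20 within 50 kb. The median signal of 42.8 was 59.1 in the upper 50%, where low peaks are removed by construction, and 15.7 to 29.0 with 1 replicate left out, where the values have the scale of the other replicate's list. The 6 genes with a summit within 10 kb became 1 within 1 kb. The 92.3% matched in both replicates became 64.1% when only each replicate's highest peaks counted. The 12.8% with a CEBP sequence became 0.0 with the full palindrome. With 100 bases on each side of the summit it was 15.4%, close to the 14.7% of all optimal peaks. The median log2 ratio kept to 0.92 to 0.94 under other match rules and lists. Of 36 counts for single genes under the alternatives, 26 stayed within 1.5 times the reported count and 10 did not. Cebpb had 10 summits in the conservative list, 9 in the upper 50%, 12 to 18 with 1 replicate left out and 4 within 50 kb, where its strongest had 59.1. The conservative list lacked its peaks 47.3 and 31.9 kb upstream and those 69.0, 84.2, 89.1 and 92.9 kb downstream. Cebpg had 6 in the upper 50% and 4 within 50 kb, and Cebpd had 3 within 50 kb. Cebpe had 4 in the conservative list and 2 to 4 with 1 replicate left out. Cebpz had 1 in the upper 50%. Without replicate 1 the Cebpa promoter summit was not among the highest peaks. No paired analysis was possible because there is 1 group. Limits are the unknown depth, 2 replicates with the same donor label, an unstated signal scale, assignment by distance, and few peaks per sequence.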

Other observations

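The 5 CEBP genes with no optimal summit within 1 kb of any TSS had weaker peaks there in the longer lists. The values are those of each list's own strongest peak, which need not be the same peak. At Cebpz the pooled list had 16.1, replicate 1 had 15.8 (rank 26227) and replicate 2 had 4.15 (rank 178498). These summits lay 3, 293 and 477 bases downstream of a TSS. Cebpz shares its promoter with Ndufaf7 but also has retained-intron starts inside the gene, and which start was meant was not resolved. At Cebpg the pooled list had 19.4, replicate 1 had 14.4 (rank 29291) and replicate 2 had 8.70 (rank 24797). At Cebpd the pooled list had 13.0 (rank 58448). Cebpb and Cebpe had no pooled summit there, and replicate 1 had 5.9 (rank 187310) at Cebpb and 5.75 (rank 199991) at Cebpe. The ranks 24797 at Cebpg and 26227 at Cebpz lay within the highest 26883 of their replicate lists, the length of the optimal list.

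An enhancer known from mouse myeloid cells lies about 37 kb downstream of the Cebpa TSS, a place looked up for that reason. The nearest optimal summit lay 6.06 kb from it, at 30.9 kb. Replicate 2 alone had a weak peak at 38.2 kb, with a signal of 4.72 (rank 122674 of 300000).

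The conservative list held 3 summits within 100 kb of Cebpe that the optimal list did not hold. They lay at 94.0 kb near the Psmb5 TSS with 25.1, at 60.9 kb near Acin1 with 25.6, and 42.5 kb upstream with 22.3. It also held a summit 11.4 kb upstream of Cebpa, with 20.2, where replicate 1 had 15.0 and replicate 2 had 7.71.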
